A study of Mus musculus with 12 samples.

Results

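The 10 genes described here carry or read the Wnt signal around the central vein of the liver lobule and were followed in RNA-seq counts of whole mouse liver. They were chosen by symbol, with no threshold on measured values in the rule, and all 10 were found among the 46078 genes of the table through their Ensembl identifiers. Each passed the filter on low counts that left 13054 genes for testing. The livers came from 12 male mice, labelled C57BL/6 (C57BL/6J in the study's methods), with diet-induced obesity (DIO), aged 21 weeks, with 4 mice in each group. The VSG group had vertical sleeve gastrectomy, an operation that removes most of the stomach. The Sham-WM group had a sham operation and was then given restricted food so that body weight matched that of the VSG group. The Sham-Ad lib group had a sham operation and unrestricted food. All groups shared the obesogenic diet, an operation and a spell without food before the liver was taken, and none was lean or unoperated.

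The liver lobule is zoned, so that hepatocytes near the central vein and near the portal tract express different enzymes. Endothelial cells of the central vein and adjacent sinusoids secrete Wnt2, Wnt9b and the R-spondin Rspo3, which stabilise beta-catenin in neighbouring hepatocytes and turn on a pericentral programme. That programme includes feedback genes of the pathway itself and transporters for glutamate and ammonium. Each liver was measured as bulk tissue, so the counts hold no position in the lobule, and fewer cells of a type cannot be told apart from less RNA per cell.

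Library totals lay between 15122520 and 19384076 counts, and levels are given as CPM, each count divided by its TMM-adjusted library total and scaled by 1 constant. All 6 hepatocyte markers were detected, with a summed level of at least 74202 CPM in every library. Libraries were placed in groups by the animal number that the sample title and the library name share. A second label field pairs the titles with other animals' libraries, and under that pairing edgeR called 0 genes of the whole table in any comparison, with an unadjusted p under 0.05 for 158 to 715 of them. The index numbers in the library names form 1 unbroken run for each group, and a difference in handling along that run cannot be told apart from the operations and diets.

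Across the 10 genes, the only ones past the threshold were the pericentral transporters. Slc1a2 was lower in Sham-WM than in either other group, and Rhbg was higher in VSG than in Sham-WM. A gene was called where the adjusted p of edgeR's quasi-likelihood test, corrected over all 13054 genes by the Benjamini-Hochberg method, was under 0.05. In Sham-WM against Sham-Ad lib, 1 of 10 was called, and it was lower. Over all genes 6.99% were called, 3.53% higher and 3.45% lower. In VSG against Sham-WM, 2 of 10 were called, both higher, where 26.9% of all genes were called, 15.0% higher and 11.9% lower. In VSG against Sham-Ad lib, 0 of 10 were called by edgeR, and 0 of 10 had an unadjusted p under 0.05. Over all genes this comparison called 0.751%, with 0.467% higher and 0.283% lower, and 24.1% had an unadjusted p under 0.05. DESeq2 also called 0 of 10 there, against 8.42% of the genes it tested, and its calls in the other comparisons were the same genes as edgeR's. It called 9.94% of genes in Sham-WM against Sham-Ad lib and 27.8% in VSG against Sham-WM.

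Before correction, 4 of 10 genes had a p under 0.05 in Sham-WM against Sham-Ad lib, where 21.6% of all genes did. These were Axin2, Wnt2, Wnt9b and Slc1a2. There were 3 of 10 in VSG against Sham-WM, namely Wnt9b, Rhbg and Slc1a2, where 40.4% of all genes had such a p. Groups that did not overlap were seen for 2 of 10 genes in Sham-WM against Sham-Ad lib (17.6% of all genes), 1 of 10 in VSG against Sham-WM (26.2%) and 0 of 10 in VSG against Sham-Ad lib (9.21%). The median log2 fold change of the 10 genes was 0.11 in Sham-WM against Sham-Ad lib, 0.10 in VSG against Sham-Ad lib and -0.011 in VSG against Sham-WM. Over all genes tested the medians were 0.00079, 0.028 and 0.028. Whether the shares of the 10 genes differ from those of all genes was not tested. The comparisons share groups, so they are not independent of each other.

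**Figure D1:**
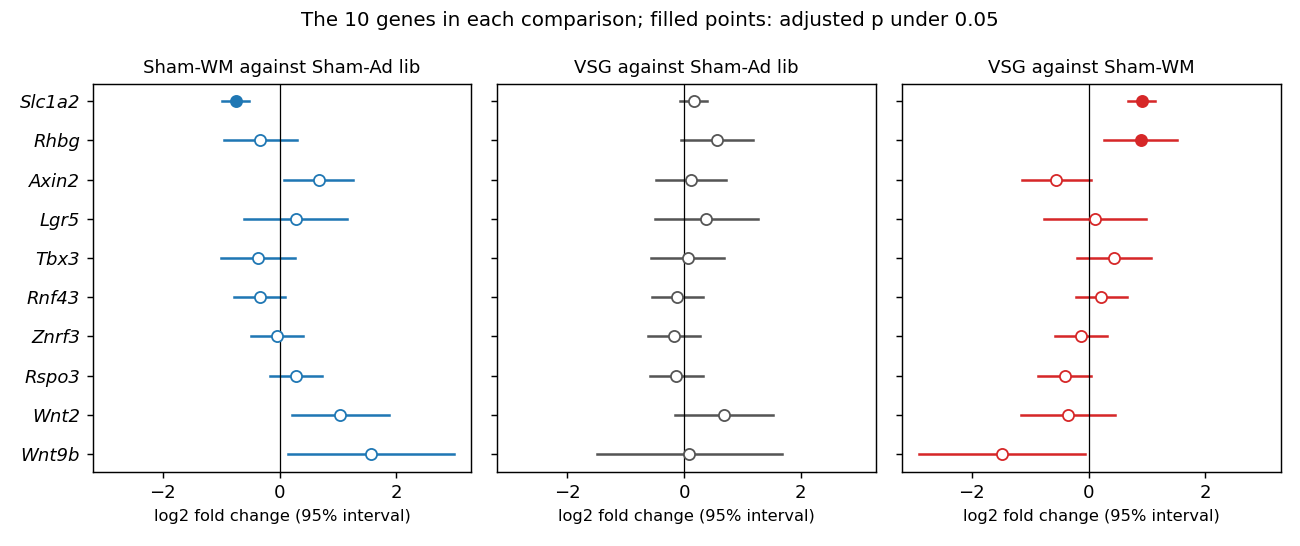
Log2 fold change (x axis) of each of the 10 genes (rows) in the 3 comparisons, with bars for the 95% interval of the edgeR fit and filled points where the adjusted p was under 0.05. Only Slc1a2 (Sham-WM against Sham-Ad lib, VSG against Sham-WM) and Rhbg (VSG against Sham-WM) have filled points, and the bars of Wnt9b are the widest.

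Of the endothelial signals, Rspo3, an R-spondin that amplifies Wnt signalling by removing the ligases Rnf43 and Znrf3 from the cell surface, was the most evenly expressed. Rspo3 (ENSMUSG00000019880) lies on mm10 at chr10:29452416-29535867 on the minus strand. Its level was 4.69, 5.21, 5.73 and 5.46 CPM in Sham-Ad lib animals 3, 4, 6 and 10. In Sham-WM animals 2, 9, 15 and 16 it was 7.49, 6.40, 6.38 and 5.29 CPM, and in VSG animals 1, 8, 11 and 18 it was 4.30, 3.32, 4.59 and 6.996 CPM. In VSG, 3 of 4 libraries were below every Sham-WM library, while VSG animal 18 was above 3 of them, so the groups overlapped in each comparison. Group means were 6.39 ± 0.898 CPM for Sham-WM, 5.27 ± 0.445 for Sham-Ad lib and 4.80 ± 1.56 for VSG (SD, n = 4). The log2 fold change in VSG against Sham-WM was -0.41 ± 0.21 (SE), with an adjusted p of 0.155 by edgeR. Without VSG animal 18 it was -0.66, with an adjusted p of 0.0192, the only call among the 12 fits that left out 1 library. Against Sham-Ad lib it was 0.28 ± 0.21 in Sham-WM (adjusted p = 0.483) and -0.13 ± 0.21 in VSG (adjusted p = 0.719).

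Wnt2, a canonical Wnt ligand of liver endothelial cells, lies at chr6:17988940-18030585 on the minus strand (ENSMUSG00000010797). It was measured at 1.56, 0.590, 1.73 and 0.627 CPM in Sham-Ad lib animals 3, 4, 6 and 10. The Sham-WM values for animals 2, 9, 15 and 16 were 1.89, 2.30, 2.45 and 2.70 CPM, each above every Sham-Ad lib library. In VSG animals 1, 8, 11 and 18 it was 1.55, 0.970, 2.11 and 2.67 CPM, a range that overlapped both sham groups. These values rest on 10 to 48 counts per library. The log2 fold change in Sham-WM against Sham-Ad lib was 1.04 ± 0.38, with a 95% interval from 0.21 to 1.87 and an adjusted p of 0.128 by edgeR. Adding 2 factors of unwanted variation to the edgeR fit brought that adjusted p to 0.0466, with a log2 fold change of 0.92, and turned VSG against Sham-WM to 0.69 (adjusted p = 0.387). In VSG against Sham-Ad lib it was 0.68 ± 0.39 (adjusted p = 0.302), and in VSG against Sham-WM it was -0.36 ± 0.37 (adjusted p = 0.496).

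Wnt9b, the other Wnt ligand of the central vein, was close to the limit of detection. It lies at chr11:103727364-103749821 on the minus strand (ENSMUSG00000018486). Its levels were 0.614, 0.161, 0.649 and 0.125 CPM in Sham-Ad lib animals 3, 4, 6 and 10, and 2.24, 0.973, 1.07 and 0.394 CPM in Sham-WM animals 2, 9, 15 and 16. In VSG animals 1, 8, 11 and 18 they were 0.418, 0.102, 0.226 and 0.910 CPM. In Sham-WM, 3 of 4 libraries were above all 8 libraries of the other groups, and animal 16 was within their range. Counts ran from 2 to 44, and 4 libraries held 3 counts or fewer, the floor taken here for a level close to 0, which covers counting error only. The log2 fold change was 1.57 ± 0.66 in Sham-WM against Sham-Ad lib (adjusted p = 0.185) and -1.48 ± 0.66 in VSG against Sham-WM (adjusted p = 0.111). Without VSG animal 18, the second of these was -2.24 with an adjusted p of 0.0372 by edgeR. That was the only call of Wnt9b in this comparison among the 12 fits that left out 1 library. In VSG against Sham-Ad lib the log2 fold change was 0.089 ± 0.73, with an interval from -1.49 to 1.67.

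**Figure D2:**
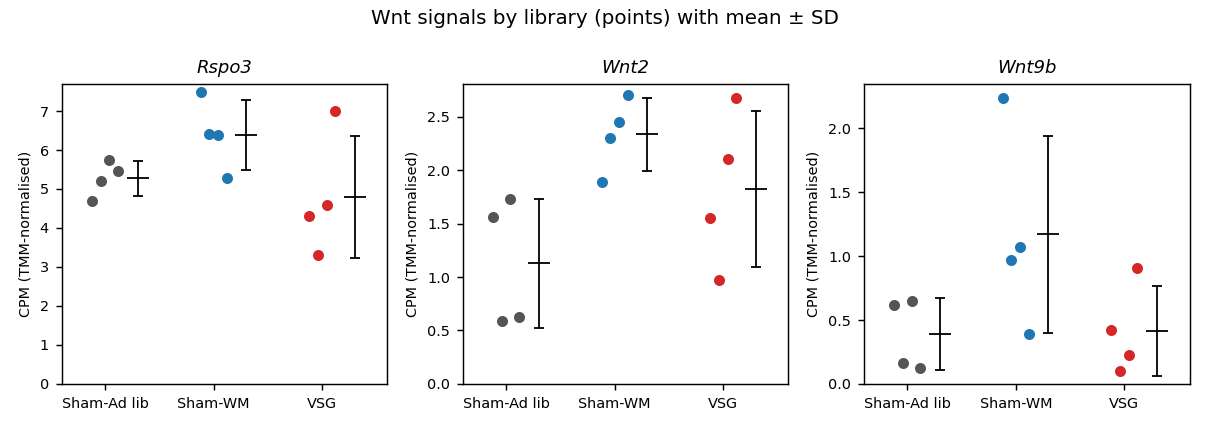
Level of the 3 secreted signals in CPM (y axis, from 0) for each library of the Sham-Ad lib, Sham-WM and VSG groups (points, in order of animal number), with the mean and SD of 4 libraries beside them. The 4 Sham-WM points for Wnt2 lie above all Sham-Ad lib points, while the groups overlap for Rspo3 and Wnt9b.

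Endothelial cells are a source of these signals, so their levels were also taken relative to the summed CPM of 17 endothelial markers. The summed level of these markers was 261 to 402 CPM across Sham-WM libraries, 233 to 305 across Sham-Ad lib and 196 to 358 across VSG. In Sham-Ad lib the 5 central vein markers made up a mean of 15.0 of 279 CPM. The ratio therefore says little about the amount of central vein endothelium. No ratio to markers of stellate or other cells was taken, so it does not cover signal made outside the endothelium. Called lower in VSG than in Sham-WM were 3 of 6 pan-endothelial markers (Kdr, Tek and Eng). There, 0 of 6 sinusoidal markers were called by edgeR (2 before correction, 0 by DESeq2). Of 5 central vein markers Cdh13 was lower and Selp was higher. Over all genes 26.9% were called in that comparison. Rspo3 amounted to 1.92% ± 0.152 of the marker sum for Sham-WM, 1.91% ± 0.330 for Sham-Ad lib and 1.78% ± 0.457 for VSG (SD, n = 4). The means of this ratio were within 1 SD of each other. Wnt2 amounted to 0.730% ± 0.242, 0.391% ± 0.175 and 0.688% ± 0.297, and Wnt9b to 0.330% ± 0.172, 0.132% ± 0.0872 and 0.139% ± 0.0882, in the same order. None of 9 two-sided exact permutation tests on the log2 ratio passed after adjustment, and the lowest adjusted p was 0.321. The lowest raw p was 0.0571 (exact permutation), for Wnt9b in VSG against Sham-WM, where 4 against 4 libraries allow no p below 0.0286. A single ratio at that lowest p would also miss the threshold after adjustment over 9 tests, so these tests had little room to pass.

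**Figure D3:**
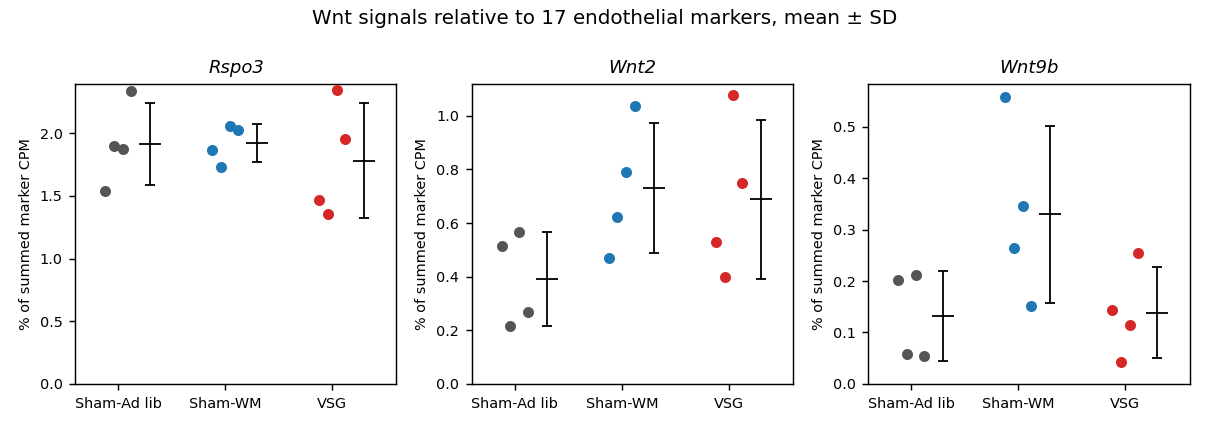
Level of each signal as a percentage of the summed CPM of 17 endothelial markers (y axis, from 0) for each library (points), with the mean and SD of 4 libraries per group. For Rspo3 the group means lie between 1.78% and 1.92%, and for Wnt2 and Wnt9b the Sham-WM mean is the highest of the 3.

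Among the genes that read the signal, Axin2, a scaffold of the beta-catenin destruction complex and a widely used direct target of beta-catenin, had its highest mean in Sham-WM. It lies at chr11:108920349-108950783 on the plus strand (ENSMUSG00000000142). Axin2 was at 3.74, 3.97, 7.90 and 7.09 CPM in Sham-Ad lib animals 3, 4, 6 and 10, at 6.52, 7.42, 9.03 and 13.2 CPM in Sham-WM animals 2, 9, 15 and 16, and at 6.27, 7.61, 5.27 and 5.35 CPM in VSG animals 1, 8, 11 and 18. The Sham-Ad lib libraries fell into a low and a high pair, and the high pair overlapped Sham-WM. The log2 fold change in Sham-WM against Sham-Ad lib was 0.67 ± 0.28, with an interval from 0.078 to 1.26 and an adjusted p of 0.173 by edgeR. In VSG against Sham-WM it was -0.56 ± 0.27 (adjusted p = 0.147), and in VSG against Sham-Ad lib 0.12 ± 0.28 (adjusted p = 0.826).

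Lgr5, a receptor for R-spondins that marks pericentral hepatocytes, varied as much within groups as between them. It lies at chr10:115450311-115587780 on the minus strand (ENSMUSG00000020140). Its levels were 6.70, 10.4, 7.36 and 3.07 CPM in Sham-Ad lib animals 3, 4, 6 and 10, and 5.50, 4.30, 7.70 and 16.0 CPM in Sham-WM animals 2, 9, 15 and 16. In VSG animals 1, 8, 11 and 18 they were 11.1, 5.92, 7.91 and 11.1 CPM. The highest library of all was Sham-WM animal 16, and without it the sign of Sham-WM against Sham-Ad lib turned, from 0.27 to -0.24 on the log2 scale. The interval of VSG against Sham-Ad lib ran from -0.50 to 1.26. The adjusted p was at least 0.586 by edgeR in each of the 3 comparisons.

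Rnf43 and Znrf3 are ubiquitin ligases that remove Frizzled receptors from the membrane, and both are switched on by the pathway they restrain. Rnf43 lies at chr11:87662722-87735539 on the plus strand (ENSMUSG00000034177) and Znrf3 at chr11:5276324-5444847 on the minus strand (ENSMUSG00000041961). Rnf43 was at 24.8, 16.4, 33.1 and 36.3 CPM in Sham-Ad lib animals 3, 4, 6 and 10, at 20.3, 20.6, 20.9 and 25.9 CPM in Sham-WM animals 2, 9, 15 and 16, and at 24.9, 30.4, 22.2 and 24.2 CPM in VSG animals 1, 8, 11 and 18. The spread was widest in Sham-Ad lib, which covered the whole range of the other groups. Znrf3 was at 12.3, 12.3, 13.7 and 8.41 CPM in Sham-Ad lib, at 8.51, 10.8, 12.7 and 13.4 CPM in Sham-WM and at 10.6, 10.9, 7.01 and 12.9 CPM in VSG, with the animals in the same order. The lowest Znrf3 library of each group lay between 7.01 and 8.51 CPM, and all groups overlapped. The log2 fold change of Rnf43 was -0.34 ± 0.20 in Sham-WM against Sham-Ad lib (adjusted p = 0.372), -0.12 ± 0.20 in VSG against Sham-Ad lib (adjusted p = 0.747) and 0.22 ± 0.20 in VSG against Sham-WM (adjusted p = 0.446). For Znrf3 the values of the same comparisons were -0.045 ± 0.20, -0.18 ± 0.20 and -0.13 ± 0.20, with adjusted p of at least 0.619 by edgeR.

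Tbx3, a T-box transcription factor of pericentral hepatocytes, lies at chr5:119670669-119684724 on the plus strand (ENSMUSG00000018604). It was measured at 23.9, 14.9, 39.4 and 48.2 CPM in Sham-Ad lib animals 3, 4, 6 and 10. In Sham-WM animals 2, 9, 15 and 16 it was at 16.9, 28.1, 22.6 and 30.3 CPM, and in VSG animals 1, 8, 11 and 18 at 37.0, 35.2, 32.5 and 27.0 CPM. The Sham-Ad lib libraries held both the lowest and the highest value. The log2 fold change was -0.37 ± 0.29 in Sham-WM against Sham-Ad lib (adjusted p = 0.518), 0.060 ± 0.29 in VSG against Sham-Ad lib (adjusted p = 0.914) and 0.43 ± 0.29 in VSG against Sham-WM (adjusted p = 0.292). An antisense gene, Tbx3os1, shares 1.74% of the exonic bases of Tbx3 and had a mean of 9.72 CPM for VSG, 4.21 for Sham-WM and 3.91 for Sham-Ad lib. Whether the counting used strand is not given in the sources used here, so reads in the shared bases cannot be told apart.

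**Figure D4:**
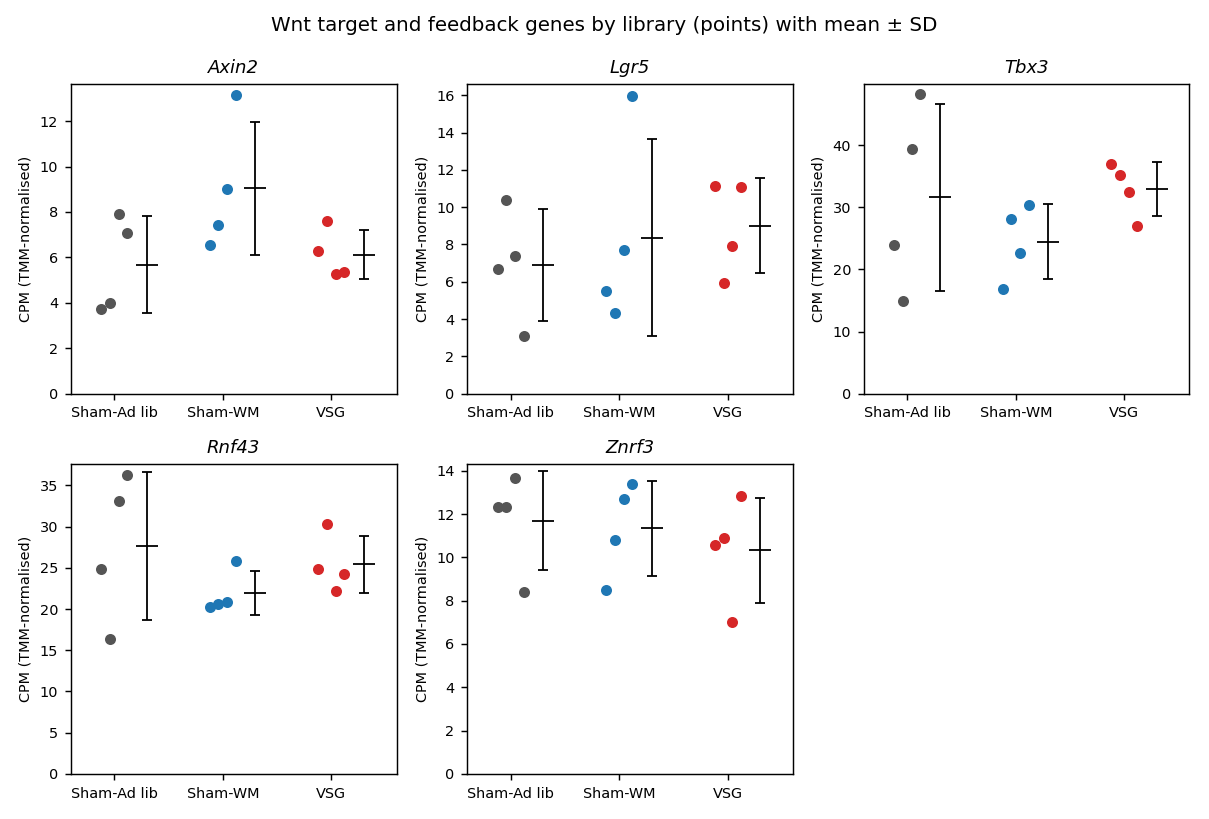
Level of the 5 target and feedback genes in CPM (y axes, from 0) for each library of the 3 groups (points, in order of animal number), with the mean and SD of 4 libraries. The groups overlap for every gene in each comparison, and the Sham-Ad lib libraries of Tbx3 range from 14.9 to 48.2 CPM.

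Slc1a2, the glutamate transporter GLT-1 that takes up glutamate in pericentral hepatocytes, was the most abundant of the 10 genes and the one with the lowest adjusted p. It lies at chr2:102658659-102790784 on the plus strand (ENSMUSG00000005089). Its level was 217, 214, 261 and 233 CPM in Sham-Ad lib animals 3, 4, 6 and 10, and 133, 124, 134 and 158 CPM in Sham-WM animals 2, 9, 15 and 16. In VSG animals 1, 8, 11 and 18 it was 258, 241, 266 and 269.8 CPM. Every Sham-WM library was below every library of both other groups, and the ranges of VSG and Sham-Ad lib overlapped. Group means were 137 ± 14.4 CPM for Sham-WM, 231 ± 21.5 for Sham-Ad lib and 259 ± 13.0 for VSG (SD, n = 4). Slc1a2 fell by 0.75 ± 0.11 on the log2 scale in Sham-WM against Sham-Ad lib, to 0.595 of the level (adjusted p = 0.00161 by edgeR). It was higher in VSG than in Sham-WM by 0.91 ± 0.11, or 1.88-fold (adjusted p = 0.000233). In VSG against Sham-Ad lib the log2 fold change was 0.16 ± 0.11, with an interval from -0.069 to 0.39 (adjusted p = 0.367). Both calls were kept in all 12 fits that left out 1 library. With libraries paired to titles by the second label field, neither call stood, and the log2 fold changes were 0.084 in Sham-WM against Sham-Ad lib and 0.065 in VSG against Sham-WM. The summed level of the hepatocyte markers was 117002 to 147036 CPM across Sham-WM libraries, 99995 to 117875 across Sham-Ad lib and 74202 to 116433 across VSG. Most of these sums was Alb alone, with means of 106082 CPM in Sham-WM, 84801 in Sham-Ad lib and 64000 in VSG. Among the 6 markers, 3 were higher and 3 lower in Sham-WM than in Sham-Ad lib, and 0 were called there.

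Rhbg, an ammonium transporter of the Rhesus family found in pericentral hepatocytes, lies at chr3:88242874-88254709 on the minus strand (ENSMUSG00000104445). It was at 1.06, 1.72, 2.11 and 1.51 CPM in Sham-Ad lib animals 3, 4, 6 and 10, at 1.38, 1.23, 0.867 and 1.63 CPM in Sham-WM animals 2, 9, 15 and 16, and at 1.61, 2.25, 2.79 and 2.84 CPM in VSG animals 1, 8, 11 and 18. In VSG, 3 of 4 libraries were above every sham library, and VSG animal 1 was just below Sham-WM animal 16. Rhbg was higher in VSG than in Sham-WM by 0.89 ± 0.29 on the log2 scale, or 1.85-fold (adjusted p = 0.0360 by edgeR), on 17 to 50 counts per library. In VSG against Sham-Ad lib the log2 fold change was 0.56 ± 0.28 (adjusted p = 0.241), and in Sham-WM against Sham-Ad lib it was -0.33 ± 0.29 (adjusted p = 0.570). The call was lost when any 1 of Sham-WM animals 2, 9 and 15 or VSG animals 8, 11 and 18 was left out, with adjusted p between 0.0563 and 0.105 and log2 fold changes between 0.74 and 0.93. It was also lost with no filter on low counts (0.87, adjusted p = 0.0671) and with 2 factors of unwanted variation (1.12, adjusted p = 0.157), and under the second label field the log2 fold change was -0.084. A read-through gene on the same strand, Gm38392, shares 1190 of the 1937 exonic bases of Rhbg and had 0 counts in each library, and how reads in shared exons were assigned is not given in the sources used here.

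**Figure D5:**
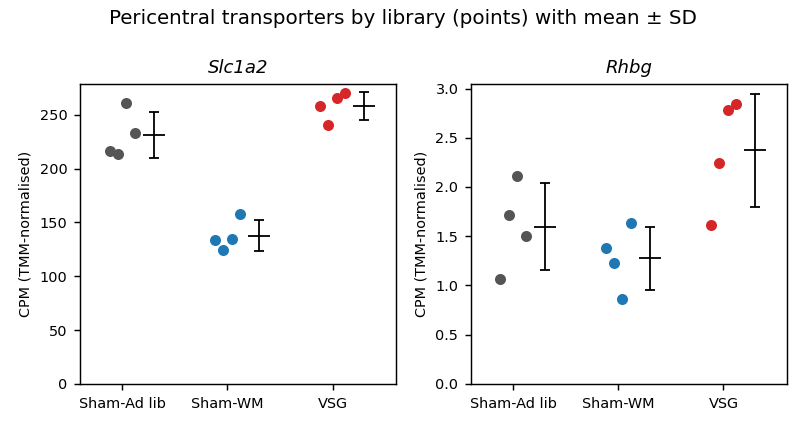
Level of Slc1a2 and Rhbg in CPM (y axes, from 0) for each library of the 3 groups (points, in order of animal number), with the mean and SD of 4 libraries. All Sham-WM points of Slc1a2 lie at or below 158 CPM and all others at or above 214 CPM, while the VSG and Sham-WM points of Rhbg touch near 1.6 CPM.

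Promoter sequence was available for 5 of the 10 genes in a RefSeq table on GRCm38.p6. The 250 bases before the annotated start were searched on both strands for CTTTGA and CTTTGT, core letters of the site bound by TCF/LEF factors, the partners of beta-catenin. Of all 32851 windows in the table, 27.6% held a match, and of the 6 windows of these genes 1 did. The window of Slc1a2 is shown because this gene carries the clearest difference, and that of Axin2 because it is the reference target of the pathway. Capitals mark matches to the searched letters.
Slc1a2, chr2:102706188-102706437, plus strand: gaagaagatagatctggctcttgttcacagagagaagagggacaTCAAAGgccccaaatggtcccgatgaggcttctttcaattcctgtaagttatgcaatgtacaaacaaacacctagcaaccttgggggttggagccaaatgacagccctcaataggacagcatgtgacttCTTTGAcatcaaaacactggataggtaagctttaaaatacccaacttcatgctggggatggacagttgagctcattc
Axin2, chr11:108920099-108920348, plus strand: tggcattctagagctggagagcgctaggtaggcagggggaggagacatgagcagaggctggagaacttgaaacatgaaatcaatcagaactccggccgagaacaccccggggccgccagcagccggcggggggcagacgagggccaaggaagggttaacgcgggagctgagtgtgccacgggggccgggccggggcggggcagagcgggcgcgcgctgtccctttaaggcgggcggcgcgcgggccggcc
The matches of Slc1a2 begin 206 and 77 bases before the start, the first on the opposite strand, and its window lies inside the longer gene that GENCODE gives. A match is a description of the letters and was not tested as a site.

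Per kilobase of exon, the order of mean levels in Sham-Ad lib began with Slc1a2 at 17.6 ± 1.64 CPM per kb, followed by Tbx3 at 4.77 ± 2.27 and Rnf43 at 4.22 ± 1.36 (SD, n = 4). Rspo3 (1.71 ± 0.144), Znrf3 (1.48 ± 0.289) and Axin2 (1.03 ± 0.387) came next. Rhbg (0.825 ± 0.226), Lgr5 (0.671 ± 0.293) and Wnt2 (0.5001 ± 0.268) were lower, and Wnt9b (0.0857 ± 0.0626) was the lowest. Of the 1937 exonic bases of Rhbg, 1190 are shared with Gm38392. Its place in this order depends on how reads in shared exons were assigned, which is not known here. The ranges of mean ± SD did not overlap between Slc1a2 and Tbx3, between Rnf43 and Rspo3, or between Wnt2 and Wnt9b, and they overlapped for each other pair of neighbours. In Sham-WM the highest was again Slc1a2, at 10.5 ± 1.09 CPM per kb. There Rspo3 (2.07 ± 0.291) was followed by Axin2 (1.64 ± 0.535), Znrf3 (1.44 ± 0.277) and Wnt2 (1.04 ± 0.152).

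Pairs of these genes were compared by the correlation of log2 CPM over the 12 libraries. Of 45 pairs, 1 passed after adjustment, that of Tbx3 and Rnf43. Its Pearson r was 0.873 (permutation p = 0.0002, adjusted p = 0.009) and Spearman's rho was 0.867 (permutation p = 0.00063). The r was 0.806 without the 2 libraries farthest from the median of Tbx3, and 0.887 after the group means were removed. Rspo3 and Wnt9b had an r of 0.776 (permutation p = 0.00291, adjusted p = 0.0655) and a rho of 0.776 (permutation p = 0.0042). Their r was 0.586 without the 2 farthest libraries and 0.70 after the group means were removed. Rhbg and Slc1a2 had an r of 0.713 (permutation p = 0.0104, adjusted p = 0.154) and a rho of 0.776 (permutation p = 0.0045). Their r was 0.587 without the 2 farthest libraries and 0.556 after the group means were removed. The permutations moved libraries across groups, so a group difference shared by a pair adds to its r. Axin2 had an r of 0.351 with Rnf43, 0.379 with Tbx3 and -0.416 with Slc1a2. These were 0.81, 0.789 and 0.666 after the group means were removed. Those 3 pairs are named here after their values were seen, and r without group means was not tested. Within a library these genes share its depth and cell make-up.

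The genes whose pattern over the 12 libraries was most like that of 3 of these genes were picked as the highest Pearson r among 13054 genes, so a high r is fixed by the choice. For Axin2 they were Usp46 (r = 0.906), Top1 (0.897) and 1700017B05Rik (0.876), with r of 0.852, 0.841 and 0.791 after the group means were removed. For Rspo3 they were Vapb (0.867), Bpnt1 (0.854) and Bmp2 (0.839), with 0.802, 0.804 and 0.737 after removal. For Lgr5 they were Plcl2 (0.844), Aoc2 (0.841) and Cadm1 (0.836), with 0.862, 0.933 and 0.880. None of these genes is a component of the Wnt pathway on the lists used here.

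The rest of the pathway was read from fixed lists. Of 7 tested ligands and release factors beyond the 3 above, 1 was called in any comparison: Wnt5a, a ligand known for signalling without beta-catenin, was lower in VSG than in Sham-WM, with a log2 fold change of -0.83 ± 0.27 (adjusted p = 0.0381 by edgeR). That call held in 4 of the 12 fits that left out 1 library, and was lost with no filter, with a 2-group fit and with 2 factors of unwanted variation (-0.57, adjusted p = 0.477). Of the 22 listed genes, 15 did not pass the filter on low counts. Of 11 tested receptors, the Wnt co-receptor Lrp5 was higher in Sham-WM than in Sham-Ad lib, by 0.71 ± 0.19 on the log2 scale (adjusted p = 0.0384), and lower in VSG than in Sham-WM, at a log2 fold change of -0.81 ± 0.19 (adjusted p = 0.00862). The second call held in all 12 leave-outs and the first in 4. Lgr4, an R-spondin receptor, was lower in Sham-WM than in Sham-Ad lib, at -0.43 ± 0.12 (adjusted p = 0.0491, held in 3 of 12), and Fzd7, a Frizzled receptor, was lower in VSG than in Sham-WM, at -0.55 ± 0.18 (adjusted p = 0.0375, held in 8 of 12). Of these, Lgr4 missed the threshold with no filter and with upper quartile factors, and Fzd7 with upper quartile factors, a 2-group fit and 2 factors of unwanted variation (-0.85, adjusted p = 0.0979). Called in VSG against Sham-WM were 1 of 7 ligands and release factors and 2 of 11 receptors, where 26.9% of all genes were. The median log2 fold change in VSG against Sham-WM was -0.15 over the 7 ligands and release factors and -0.25 over the 11 receptors, beside 0.028 over all genes. In VSG against Sham-Ad lib the median of the 11 receptors was -0.35, with 2 positive and 9 negative. There edgeR called 0 (3 before correction, beside 24.1% of all genes). DESeq2 called 2 there, beside 8.42%, Fzd4 (-0.999) and Lrp6 (-0.63), both named here after their values were seen. It also called Lrp6 lower in VSG than in Sham-WM and Fzd7 higher in Sham-WM than in Sham-Ad lib.

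Inside the cell, 4 of 17 tested genes of beta-catenin turnover and transcription were called in VSG against Sham-WM by edgeR, 3 lower and 1 higher, beside 26.9% of all genes. DESeq2 called 7 of 17. Dvl2, a Dishevelled protein that relays the signal from Frizzled, was lower, at a log2 fold change of -1.03 ± 0.18 (adjusted p = 0.00235 by edgeR). Axin1, the scaffold of the destruction complex, was lower, at -0.47 ± 0.14 (adjusted p = 0.0261), and its kinase Gsk3b was lower, at -0.37 ± 0.11 (adjusted p = 0.0282). The median of the 17 genes was -0.17 in this comparison. Tle3, a co-repressor of TCF factors, was higher by 0.71 ± 0.16 (adjusted p = 0.00753). Dvl2 was also higher in Sham-WM than in Sham-Ad lib by 0.80 ± 0.18 (adjusted p = 0.0187), the only one of the 17 called there, and 0 of 17 were called by edgeR in VSG against Sham-Ad lib (1 before correction, 0 by DESeq2). The VSG against Sham-WM calls of Dvl2 and Tle3 held in all 12 leave-outs, those of Axin1 and Gsk3b in 10 and 7, and the Sham-WM call of Dvl2 in 9. With 2 factors of unwanted variation both calls of Dvl2 stood, while those of Tle3 (0.52, adjusted p = 0.225), Axin1 (-0.18, adjusted p = 0.527) and Gsk3b (-0.18, adjusted p = 0.492) were lost, and a 2-group fit also lost that of Axin1. Of 4 tested secreted antagonists, 0 were called by edgeR in any comparison. Their median log2 fold change was 0.93 in VSG against Sham-WM, with all 4 positive. It was 0.80 in VSG against Sham-Ad lib, with 3 positive and 1 negative, and -0.11 in Sham-WM against Sham-Ad lib. At most 1 had an unadjusted p under 0.05 in a comparison, and DESeq2 called 1, in VSG against Sham-Ad lib. This was Wif1, a secreted factor that binds Wnt ligands, higher in VSG and named here after its values were seen. Its mean was 1.54 CPM for VSG, 0.640 for Sham-WM and 0.303 for Sham-Ad lib. Dkk3, the most abundant of the 4 over the 12 libraries, had a mean of 2.72 CPM for VSG, 2.21 for Sham-WM and 1.94 for Sham-Ad lib.

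Of 18 other pericentral hepatocyte genes, edgeR called 1, in VSG against Sham-WM. This was Slc13a3, a dicarboxylate transporter, which was higher by 1.08 ± 0.28 on the log2 scale (adjusted p = 0.0148 by edgeR). With 2 factors of unwanted variation it was 0.46 (adjusted p = 0.604). DESeq2 also called Slc13a3 in VSG against Sham-Ad lib and Cyp2c50, a cytochrome P450 named here after its values were seen, lower in VSG than in Sham-WM. The Slc13a3 mean was 71.8 CPM for VSG, 34.1 for Sham-WM and 32.8 for Sham-Ad lib. In Sham-WM against Sham-Ad lib the median log2 fold change of the 18 genes was 0.079, with 12 positive and 6 negative values. Groups did not overlap there for 1 of 18, beside 17.6% of all genes. This was Glul, named here after its values were seen and not called. It was at 1329 to 1683 CPM in Sham-WM, 910 to 1297 in Sham-Ad lib and 960 to 1463 in VSG. In VSG against Sham-WM the median of the 18 genes was -0.058, with 8 positive and 10 negative values. Of 17 periportal genes, 4 were called there by edgeR and 5 by DESeq2, again beside 26.9% of all genes. G6pc, the glucose-6-phosphatase of gluconeogenesis, was lower, at a log2 fold change of -3.18 ± 0.49 (adjusted p = 0.00126) and had also been higher in Sham-WM than in Sham-Ad lib by 2.13 ± 0.47 (adjusted p = 0.0170). Cps1, the first enzyme of the urea cycle, was lower, at -0.83 ± 0.22 (adjusted p = 0.0174) and Etnppl, a lyase of phosphoethanolamine, was lower, at -1.40 ± 0.45 (adjusted p = 0.0353). Ctsc, a lysosomal protease, was higher by 0.77 ± 0.21 (adjusted p = 0.0180). With 2 factors of unwanted variation these calls in VSG against Sham-WM were lost, at -2.46 for G6pc (adjusted p = 0.102), -0.43 for Cps1 (0.405), -0.33 for Etnppl (0.803) and 0.37 for Ctsc (0.489). The Etnppl call held in 7 of 12 leave-outs and was lost with a 2-group fit. The median of the 17 periportal genes was 0.10. Of 9 tested genes on the list of further Wnt targets, Myc alone was called by edgeR, higher in VSG than in Sham-WM by 1.498 ± 0.52 (adjusted p = 0.0480). Without VSG animal 11 its log2 fold change was 0.69 (adjusted p = 0.215), and the call held in 4 of 12 leave-outs. It was lost with a 2-group fit and with 2 factors of unwanted variation (0.40, adjusted p = 0.783). DESeq2 also called Myc higher in VSG than in Sham-Ad lib, and called Nkd1, an antagonist of Dishevelled named here after its values were seen, higher in Sham-WM than in Sham-Ad lib (0.91, adjusted p = 0.0213 by DESeq2) and lower in VSG than in Sham-WM.

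Markers of other liver cells moved between the same groups, and their part in the values above was not tested. All 7 Kupffer cell markers were called higher in VSG than in Sham-WM, with a summed level of 453 to 1293 CPM in VSG, 121 to 211 in Sham-WM and 136 to 437 in Sham-Ad lib. In VSG against Sham-Ad lib edgeR called 2 of 7 Kupffer markers higher (7 before correction, 0 with a 2-group fit) and DESeq2 called 6. With 2 factors of unwanted variation 0 of 7 were called in either comparison. All 5 tested neutrophil markers were called higher in VSG against each sham group, with a summed level of 21.5 to 725 CPM in VSG, 1.24 to 2.29 in Sham-WM and 0.379 to 13.8 in Sham-Ad lib. Against Sham-Ad lib the adjusted p were 0.0410 to 0.0459 by edgeR. There, 0 were called with a 2-group fit or in 8 of the 12 fits that left out 1 library. The fit with 2 factors of unwanted variation called 2 of 5 neutrophil markers against Sham-Ad lib and 3 of 5 against Sham-WM. Of 8 stellate cell markers, 3 were lower in VSG than in Sham-WM (Lrat, Reln and Hand2) and Rgs5 was higher. Their sums were 263 to 350 CPM in VSG and 325 to 386 in Sham-WM. In Sham-WM against Sham-Ad lib 1 of 8 was called, Lrat, which was higher (adjusted p = 0.0384 by edgeR). Over all genes, 26.9% were called in VSG against Sham-WM, 0.751% in VSG against Sham-Ad lib and 6.99% in Sham-WM against Sham-Ad lib. Of 6 tested cholangiocyte markers, 0 were called by edgeR in any comparison (2 before correction and 1 by DESeq2 in VSG against Sham-WM), and of 6 hepatocyte markers Alb was lower in VSG than in Sham-WM. Each marker on these lists was above 0 in at least 1 library.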

How the data were processed

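Liver RNA of 12 mice was measured by poly(A) RNA-seq. The deposited table holds whole-number counts per Ensembl gene, which the authors made by aligning reads to mm10 with TopHat2 2.1.1 and counting with featureCounts, and did not normalise. The annotation release and strand setting are not given in the sources used here. Symbols, positions and exon lengths came from GENCODE M21, which matched 45229 of 46078 genes. Reads carry no molecular identifiers, so counting error is a lower limit of the error.

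Libraries were grouped by the animal number shared by title and library name. Genes were kept by filterByExpr (minimum count 10, minimum total 15), and 13054 were fitted in edgeR 4.0.16 (R 4.3.3, limma 3.58.1) as 3 group means over all 12 libraries with TMM factors. Quasi-likelihood tests were adjusted by the Benjamini-Hochberg method. Standard errors and 95% intervals of log2 fold changes derive from that test. Log2 CPM for correlations used a prior count of 2. Ratios to endothelial markers were compared by exact permutation (scipy 1.17.1), and correlations by 100000 permutations. Each mouse is 1 replicate. No pair of replicates was a copy of another (chi-square per gene at least 16.8, Spearman's rho at most 0.992). Chi-square per gene was 53.1 to 145 between VSG libraries, 26.5 to 93.2 between Sham-Ad lib and 16.8 to 50.1 between Sham-WM. The fit took the same spread of a gene for all 3 groups, so unequal spread was not modelled. The fit was tested on simulated data with the same dispersion for every gene and group. That test does not cover a spread that differs between genes or groups.

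The study's methods used DESeq2 with 2 RUVSeq factors. Here DESeq2 1.42.0 and an edgeR fit with 2 factors written out from the definition of RUVs were alternatives, with other size factors, other filters, 2-group fits, the pairing that the other label field gives, and fits that each dropped 1 library. The genes and lists were chosen with earlier results of these data known. Besides the 10 genes, the text names up to 4 genes per pathway list with an adjusted p under 0.05 in any comparison, by the largest fold change (otherwise the most abundant), and the 3 genes most correlated with Axin2, Rspo3 and Lgr5.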

Additional observations from a re-analysis of the deposited data

Results flagged for a closer look

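For Slc1a2 and Rhbg the effect of VSG differed from that of food restriction after a sham operation, tested as VSG against Sham-WM. For Slc1a2 the effect of VSG exceeded that of Sham-WM by 0.91 on the log2 scale, since the log2 fold change against Sham-Ad lib was 0.16 in VSG and -0.75 in Sham-WM. For Rhbg the excess was 0.89, from 0.56 in VSG and -0.33 in Sham-WM, and both effects against Sham-Ad lib missed the threshold. The Rhbg call in VSG against Sham-WM held in 6 of the 12 fits that left out 1 library. It was lost with no filter on low counts and with 2 factors of unwanted variation. Both effects are measured against the same 4 Sham-Ad lib libraries, which cancel in the difference. Each excess is thus the VSG against Sham-WM value given above.

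The Rnf43 level of Sham-WM animal 16, at 25.9 CPM, was far from the other 3 libraries of its group, which lay between 20.3 and 20.9 CPM. It was the only 1 of 39 groups of 4 values with such a gap, and chance alone gives about 1 in 20.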

How the results depend on the processing

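No paired analysis was possible because the animal numbers of the 3 groups are all different. Of the 10 genes, the same were called with DESeq2, with DESeq2 or upper quartile size factors in edgeR, with at least 10 counts in every library and with 2-group fits, although Wnt9b could not be tested with that filter. The count for Sham-WM against Sham-Ad lib moved from 1 to 4 without adjustment, 2 with the 2 RUVs factors and 0 when libraries were grouped by the second label field. For VSG against Sham-WM it moved from 2 to 1 with no filter, 1 with the 2 factors and 0 with that grouping, and lay between 1 and 3 when 1 library was left out. Over all genes, the counts of the 3 comparisons (VSG against Sham-Ad lib, Sham-WM against Sham-Ad lib, VSG against Sham-WM) were 98, 912 and 3509. They were 6, 1719 and 526 with the 2 factors, and 0, 0 and 0 by edgeR with the second grouping, where the p before adjustment was under 0.05 for 465, 715 and 158 genes. In place of 98, the first comparison gave 1227 with DESeq2, 628 with no filter, 0 with at least 10 counts in every library or a 2-group fit, and 0 to 1089 with 1 library left out. DESeq2 gave 1404 in place of 912, which ran from 424 to 1311 with 1 library left out, while 3509 ran from 2196 to 3868.

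With the second grouping, the signs of these log2 fold changes turned. In VSG against Sham-Ad lib these were Axin2 -0.66, Lgr5 -0.014, Tbx3 -0.35, Znrf3 0.089, Rspo3 0.11 and Wnt2 -0.043. In Sham-WM against Sham-Ad lib these were Axin2 -0.36, Lgr5 -0.31, Znrf3 0.20, Rspo3 -0.074, Wnt2 -0.50, Rhbg 0.12, Slc1a2 0.084, G6pc -1.89, Lrp5 -0.093, Lgr4 0.27 and Dvl2 -0.26. In VSG against Sham-WM these were Tbx3 -0.17, Rnf43 -0.092, Rspo3 0.19, Wnt2 0.45, Wnt9b 1.15, Rhbg -0.084, G6pc 0.58, Ctsc -0.00027, Axin1 0.056 and Tle3 -0.24. Slc1a2 in VSG against Sham-WM was then 0.065. With the 2 factors, signs turned for Rnf43 (0.085), Znrf3 (0.14) and Rspo3 (0.073) in VSG against Sham-Ad lib and for Znrf3 (0.31) and Wnt2 (0.69) in VSG against Sham-WM. None of these values passed adjustment, and why they turned was not tested.

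Dropping 1 library at a time, VSG against Sham-Ad lib ran on the log2 scale from -0.042 to 0.32 for Axin2, -0.18 to 0.31 for Tbx3, -0.30 to 0.016 for Rnf43 and -0.66 to 0.45 for Wnt9b. Sham-WM against Sham-Ad lib ran from -0.24 to 0.54 for Lgr5 and -0.18 to 0.072 for Znrf3, and in VSG against Sham-WM from -0.11 to 0.62 for Lgr5 and -0.26 to 0.013 for Znrf3. The ratio of Rspo3 to endothelial markers in Sham-WM against Sham-Ad lib, 0.017 on the log2 scale, was -0.025 with pan-endothelial markers only, -0.020 with the mean of log2 CPM, and -0.083 to 0.12 with 1 library left out. In VSG against Sham-WM, with pan-endothelial markers only, the Rspo3 ratio was 0.015 and the Wnt2 ratio 0.030, and the latter ran from -0.37 to 0.11 with 1 library left out. The Wnt9b ratio in VSG against Sham-Ad lib ran from -0.29 to 0.58. Of 204 values of the other named genes with 1 library left out, 149 stayed on their side of the threshold, 55 did not and 0 changed direction. Of 135 values under the other alternatives, 98 stayed, 29 did not and 8 changed direction, all 8 with the second grouping. Depth limits Wnt9b, Wnt2 and Rhbg, whose counts were at most 50 in each library.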
